A study of Mus musculus with 39 samples.

Results

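The comparison described here is chronic intermittent hypoxia (CIH) against room air normoxia (NX) in microglia of wildtype (WT) male mice at 8 months of age. Its members were the 5 WT NX and 5 WT CIH libraries of the male count table, chosen by their sample titles, and they are 10 of the 39 samples of the series. Genes were kept where the normalized abundance, CPM (counts scaled to a common library total), was above 1 in at least 3 of these 10 libraries, which left 14983 of the 54532 genes listed. The question was how 4 months of CIH, starting at 4 months of age, altered the microglial transcriptome in the absence of amyloid.

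The labels give the genotype as wildtype with no strain, and the methods describe a cross of C57BL/6J WT females with 5XFAD males without saying whether the WT mice studied came from it. In CIH, oxygen alternated between a low level and 21% in 90-second intervals during the sleep phase, and NX mice received air at 21% oxygen with the same noise and airflow. The low level was 6.5% for 8 h a day in the series text and 6% for 12 h a day in the methods. Microglia were taken from the perfused and enzymatically dissociated cerebrum with CD11b magnetic beads, a step that also retains other CD11b+ cells such as neutrophils and monocytes. The labels number the libraries but do not name animals, and the methods call the samples independent. The p-values below measure the spread between these libraries.

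Microglia are the resident macrophages of the brain parenchyma and depend on CSF1R signaling. They express purinergic and fractalkine receptors (P2ry12, Cx3cr1) and Tmem119 at rest, and they can take up interferon response and disease-associated microglia (DAM) programs. Low oxygen is sensed mainly through the prolyl hydroxylases, which mark the HIF alpha subunits for degradation when oxygen is plentiful, and HIF drives glycolytic, angiogenic and stress genes such as Vegfa and Ddit4.

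Library totals were 13902976 to 23095627 counts, so that 1 CPM corresponded to 13.9 to 23.1 reads. Totals did not separate the groups (exact permutation test over 252 splits, p = 0.317), but CIH libraries held more genes with at least 1 count (24918 ± 4719 against 20028 ± 1352 in NX, SD, n = 5 each, exact permutation p = 0.00794, the smallest these groups allow, adjusted p = 0.0119 over 3 library properties). CIH 5 stood apart with 33169 such genes, while the other CIH libraries held 21900 to 24461. Calls are therefore also given without CIH 5. On the first principal component, which held 29.6% of the variance, NX 1 at −7.74 lay nearer to the CIH libraries (−41.4 to −22.5) than the other NX libraries did (36.9 to 59.3). The 8 microglia markers summed to 33600 to 38100 CPM in NX and 29500 to 33800 CPM in CIH and none was at 0 in any library, while the sum of the 8 neutrophil markers was 228 to 1220 CPM in NX and 110 to 317 CPM in CIH. The CPM values given are scaled by the trimmed mean of M values (TMM).

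CIH altered many genes by small amounts and fewer by more than 2-fold. In edgeR's quasi-likelihood F test, 376 genes were differentially expressed (DEGs, Benjamini-Hochberg FDR below 0.05 and absolute log2FC above 1), of which 244 were higher in CIH, or 1.63% of the genes tested, and 132 were lower, or 0.881%. Without the limit on fold change, 2035 genes (13.6%) were higher and 2244 (15%) were lower at an FDR below 0.05. All 5 CIH libraries lay above all 5 NX libraries for 1206 genes (8.05%) and below them for 1381 (9.22%). Among the DEGs, 141 of 244 higher and 67 of 132 lower genes had libraries that did not overlap, and 152 of the higher and 73 of the lower genes had a mean under 5 CPM. Without CIH 5, 324 DEGs were called, 206 higher and 118 lower. Without NX 1 there were 621, which was the largest number when any library was left out.

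The calls differed when other groups entered the fit. When all 4 male groups (WT and 5XFAD) entered a single fit, 0 genes passed edgeR's test for WT CIH against WT NX, with 4491 at an unadjusted p below 0.05 and a smallest FDR of 0.0594. That fit also tested 15813 genes and scaled 20 libraries together, and which of these changes ended the calls was not tested. Leaving 5XFAD NX 1 out of that fit gave 107 DEGs (61 higher and 46 lower), 98 of which were among the 376. The split between higher and lower genes also depended on scaling. It was 64.9% higher with TMM and 78.7% higher with scaling by library size alone (333 higher and 90 lower), where the log2FC of the median gene was 0.09 in place of −0.01.

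The interferon-induced transmembrane genes, which encode small membrane proteins that restrict virus entry, were among the genes that fell. Ifitm3 (ENSMUSG00000025492, GRCm38 chr7:141009586-141010770) measured 34.3, 41.3, 28.4, 73.1 and 78.3 CPM in NX 1 to 5 and 25.3, 22, 15.8, 23.3 and 20.8 CPM in CIH 1 to 5. The groups did not overlap, and NX 4 and NX 5 stood highest. The log2FC of Ifitm3 was −1.25 (SE 0.244, FDR = 0.00181). Ifitm2 (log2FC −1.17, FDR = 0.0234) and Ifitm6 (−1.60, FDR = 0.00785) also fell, both with libraries that overlapped between groups. Ifitm2 lost its call without NX 4, without NX 5 or without CIH 4. Of the 7 genes of this family listed, 5 were tested, and 3 of them were lower DEGs against 0.881% of all genes. Ifitm1 had a log2FC of −0.64 (FDR = 0.346), and Ifitm10 fell by less than 2-fold. Ifitm5 and Ifitm7 did not pass the CPM filter.

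A wider list of 48 interferon-stimulated genes held 3 lower DEGs and 0 higher, where 0.881% of all genes were lower DEGs and 1.63% higher. At an FDR below 0.05, 9 of its genes were lower and 7 higher, shares near the 15% and 13.6% of all genes, and its median log2FC of −0.07 was near the −0.01 of all genes. With scaling by library size alone that median was 0.03, and without NX 5 a single lower DEG was left. The 3 DEGs were Cxcl10, a chemokine that recruits CXCR3+ T cells, Ifi27l2a, an interferon-induced mitochondrial gene, and Isg15, a ubiquitin-like modifier. Isg15 measured 5.95, 7.04, 5.32, 10.6 and 11.7 CPM in NX and 4.42, 3.09, 3.31, 3.45 and 4.1 CPM in CIH, with no overlap (log2FC −1.14, SE 0.253, FDR = 0.00379), and it lost its call without NX 5. Cxcl10 measured 8.53, 5.92, 11.8, 6.47 and 15.8 CPM in NX and 8.35, 2.54, 4.08, 3.21 and 2.95 CPM in CIH, where CIH 1 lay among the NX libraries (log2FC −1.21, SE 0.342, FDR = 0.0156). Cxcl10 also lost its call without NX 5, and Ifi27l2a (log2FC −1.20, FDR = 0.00493) without NX 4. Ccl5, a chemokine for T cells and monocytes, had a log2FC of −1.18 and was not called (FDR = 0.0515), although it was called under 8 of 26 alternative settings. The helicase gene Ddx58 and the transcription factor gene Stat2 were among the 7 members that rose, at log2FC 0.35 and 0.34. With the trend of fold change on gene length removed, which is described further on, 0 members were higher and 7 lower, with a median of −0.15.

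The interferon-stimulated response element is a site bound by IRF family proteins after interferon signaling. The letters searched were GAAA, then any 2 bases, then GAAA, on both strands of the 250 bases before each annotated start (RefSeq, GRCm38.p6). They occurred in 978 of 32851 promoters (2.98%) and in 19 of the 36 interferon list genes found in that table (52.8%). Among the called genes they occurred before Isg15, with 3 overlapping or neighboring matches, before Cxcl10 and before Ifitm2. No such letters were found in this window of Ifitm3 or Ifitm6, and Ifi27l2a, which was called as well, was not searched. The first matches before the 3 called genes are shown because these genes fell, with their letters in capitals and 10 bases on each side, on the strand of the gene. They lie at chr4:156200877-156200906 (minus strand) for Isg15, chr5:92349083-92349112 (minus strand) for Cxcl10 and chr7:140955988-140956017 (minus strand) for Ifitm2. In the Isg15 stretch an overlapping match runs on into the lower-case letters and is not marked.
Isg15: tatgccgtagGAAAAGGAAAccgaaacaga
Cxcl10: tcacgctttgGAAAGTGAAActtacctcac
Ifitm2: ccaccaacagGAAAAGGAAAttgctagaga

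Of all lists, that of neutrophil genes had the lowest median log2FC. Of 37 neutrophil genes listed, 30 were tested, and 17 of them were lower DEGs against 0.881% of all genes, with a median log2FC of −1.39. The members that fell included the antimicrobial granule proteins Ngp (log2FC −1.76, FDR = 0.0156), Camp (−1.76, FDR = 0.00554), Ltf (−1.43, FDR = 0.0251) and Lcn2 (−1.87, FDR = 0.00673), the calprotectin subunits S100a8 and S100a9 (−1.81, FDR = 0.00311), and Cebpe (−2.11, FDR = 0.0176), a transcription factor of granulocyte maturation. S100a8 measured 66.9, 51.4, 198, 138 and 324 CPM in NX and 34.4, 30.6, 27.2, 87.9 and 60.8 CPM in CIH (log2FC −1.69, SE 0.433, FDR = 0.00897). NX 3 and NX 5 were high, NX 1 and NX 2 were low, and the groups overlapped. Ngp measured 54.4, 50.3, 257, 72.5 and 283 CPM in NX and 26.9, 24.1, 21.4, 79.7 and 59.7 CPM in CIH, so that the same NX libraries stood high and CIH 4 stood above 3 NX libraries. Ngp, Cebpe and Ltf lost their calls without NX 5, and Ltf also without NX 3, CIH 1, CIH 2 or CIH 3.

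G0s2, an inhibitor of adipose triglyceride lipase, and Slpi, a secreted inhibitor of leukocyte proteases, fell without overlap. G0s2 measured 2.52, 4.6, 4.5, 4.24 and 9.59 CPM in NX and 1.31, 1.08, 0.985, 1.05 and 1.6 CPM in CIH (log2FC −2.07, SE 0.364, FDR = 0.000938). Slpi measured 2.3, 2.43, 5.82, 7.29 and 6.71 CPM in NX and 1.17, 0.866, 1.41, 1.17 and 1.6 CPM in CIH (log2FC −1.98, SE 0.384, FDR = 0.00172). Both were low genes with NX above CIH in every library. The haptoglobin gene Hp also fell without overlap (log2FC −1.41, FDR = 0.000984). Other members were not called, among them the primary granule genes Mpo (log2FC −1.02) and Elane (−1.60), the surface marker Ly6g (−1.03), the chemokine receptor gene Cxcr2 (−0.31) and the cytokine receptor gene Csf3r (0.22). In raw reads, Ly6g had 236 in the 5 NX libraries, of which 101 were in NX 3 and 85 in NX 5, and 104 in the 5 CIH libraries. Without NX 5, 9 neutrophil genes were called lower rather than 17, and the range over all libraries left out was 9 to 21, with medians from −1.64 to −1.09.

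Monocyte genes moved the same way in part. Of 21 tested, 8 were lower DEGs, against 0.881% of all genes (median log2FC −0.73), but 4 of these, Ifitm2, Ifitm6, Hp and Chil3, also stood in the Ifitm or the neutrophil list. Ly6c2, the antigen of classical monocytes, measured 5.95, 3.75, 12.9, 13.7 and 16.9 CPM in NX and 1.73, 3.03, 2.53, 5.14 and 5.7 CPM in CIH (log2FC −1.55, SE 0.394, FDR = 0.00876). Plac8 (−1.32, FDR = 0.0121), the calcium-binding S100a6 (−1.19) and Ms4a4c (−1.04) fell as well. S100a6 lost its call under 11 of 26 alternative settings, among them without NX 4, NX 5, CIH 2 or CIH 3, and its log2FC was then as small as −0.67. Ms4a4c lost its call under 9 of 26. The chemokine receptor gene Ccr2 had a log2FC of −0.27 and Vcan one of 1.58, and neither was called. Without NX 5, 4 monocyte genes were called lower, and Plac8 lost its call without NX 4. In these bulk libraries fewer cells of a type and less RNA per cell cannot be told apart. The sum of the 8 neutrophil markers had medians of 446 CPM in NX and 134 CPM in CIH, none of the 8 was at 0 in any library, and that of the 4 monocyte markers ranged over 31.7 to 68.1 CPM in NX and 26.1 to 40.1 CPM in CIH. The part of cell numbers in these values was not tested.

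**Figure D1:**
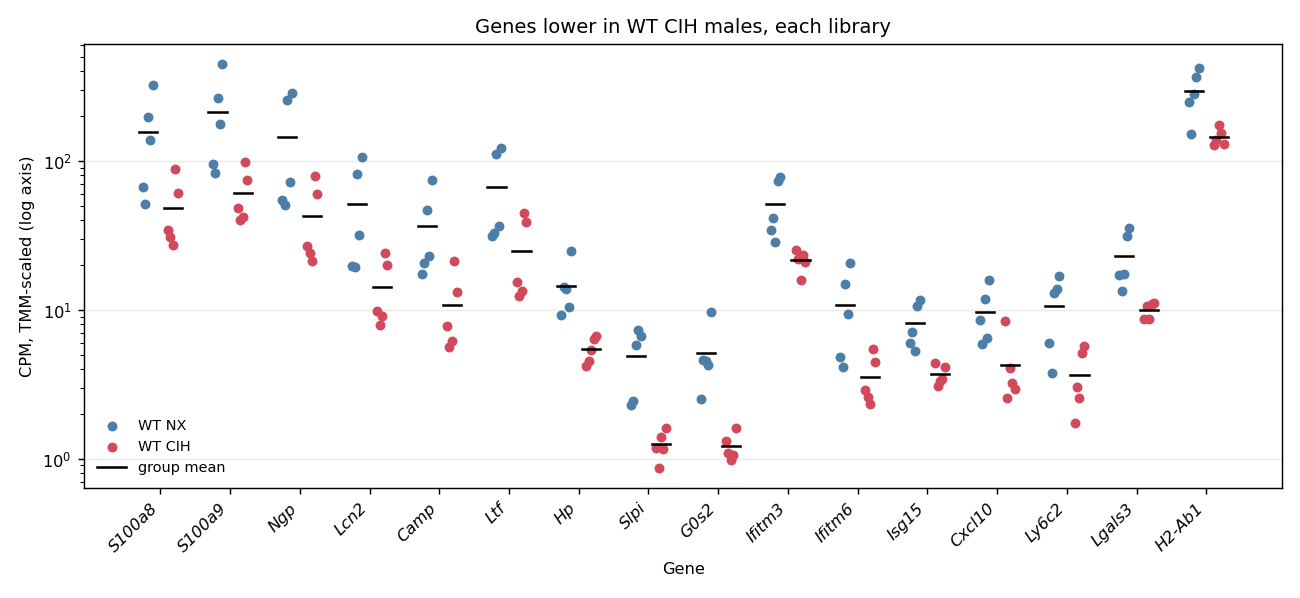
CPM (TMM-scaled, log axis) of 16 genes that fell, with 1 point per library for the 5 WT NX and the 5 WT CIH libraries and a line at each group mean. Ifitm3, Isg15, G0s2 and Slpi do not overlap between groups, whereas CIH libraries of S100a8 and Ngp reach into the lower NX libraries.

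C/EBP family factors, including the product of Cebpe, act on granule gene promoters. The letters TTGCNNAA, on both strands of the 250 bases before the start, occurred in 3142 of 32851 promoters (9.56%), in 10 of the 25 neutrophil list genes found in the table and in 7 of the 13 of these that were called lower. The first matches before 4 of these 7, the granule genes Ltf, Ngp and Lcn2 and the calprotectin gene S100a9, are shown as examples of neutrophil genes that fell, in capitals on the strand of the gene with 10 bases on each side (Ngp had 2 matches). They lie at chr9:111019207-111019234 (plus strand) for Ltf, chr9:110419660-110419687 (plus strand) for Ngp, chr3:90695940-90695967 (minus strand) for S100a9 and chr2:32387938-32387965 (minus strand) for Lcn2.
Ltf: ggcaggcctaTTGGGCAAtagggtgggg
Ngp: tcctggtttaTTGCCCAAacctccttgc
S100a9: gtaggctgtcTTGCTTAAgatttgggcg
Lcn2: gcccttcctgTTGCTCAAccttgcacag

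Genes of microglial identity and of the DAM program fell mostly by less than 2-fold. Of 32 DAM genes tested, 22 were lower at an FDR below 0.05 and 0 were higher (median log2FC −0.52), against 15% lower among all genes. Between 18 and 22 were lower when each library was left out. Cst3, a cysteine protease inhibitor, stood in the list of homeostatic microglia genes and not in the DAM list, and had the most counts in every library. It ranged from 21550 to 31271 CPM in NX and from 13703 to 16093 CPM in CIH (log2FC −0.72, SE 0.0936, FDR = 0.000266). Trem2, the lipid-sensing receptor of the DAM program, ranged from 2143 to 2552 CPM in NX and from 1476 to 1701 CPM in CIH (log2FC −0.55, SE 0.0779, FDR = 0.000317). Neither gene overlapped between groups. Lgals3, the galectin-3 gene, was the single DEG of the DAM list and measured 17.2, 13.4, 17.5, 31.5 and 35.1 CPM in NX and 8.63, 10.7, 8.65, 11 and 11 CPM in CIH (log2FC −1.19, SE 0.234, FDR = 0.00184), without overlap, and it left the 2-fold limit without NX 5. Apoe, the main brain apolipoprotein, fell as well (−0.74, FDR = 0.0022), whereas Spp1 (−0.19, FDR = 0.625) and Lpl (−0.08, FDR = 0.646), which mark the later DAM stage, were not called.

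Among 14 identity genes, 8 were lower at an FDR below 0.05, against 15% of all genes, and 0 were higher (median log2FC −0.23). Tmem119 ranged from 3666 to 4375 CPM in NX and from 2470 to 3097 CPM in CIH (log2FC −0.52, SE 0.0834, FDR = 0.00055). Cx3cr1 measured 6231, 6458, 6995, 6028 and 5539 CPM in NX and 6478, 6406, 6428, 6145 and 5691 CPM in CIH, which overlapped throughout (log2FC −0.00, SE 0.0741, FDR = 0.969). P2ry12 (−0.16, FDR = 0.198) and Csf1r (−0.18, FDR = 0.0662) were not called. The smallest FDR of all genes belonged to Slamf9, a SLAM family receptor, which measured 168, 145, 163, 161 and 171 CPM in NX and 89, 98.5, 78.2, 83.8 and 80.6 CPM in CIH (log2FC −0.91, SE 0.0846, FDR = 0.000188). Its replicates lay close together in both groups, as did those of Ccl6, a CC chemokine of myeloid cells (log2FC −0.85, SE 0.084, FDR = 0.000217).

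Antigen presentation genes were lower as well. Of 16 MHC class I pathway genes, 12 were lower at an FDR below 0.05, against 15% of all genes, and 0 higher (median log2FC −0.41), including B2m, the invariant light chain (−0.59, FDR = 0.00157). Class I heavy chain genes are near-identical copies of each other, and their reads may be split between them. Of 10 MHC class II genes, 7 were lower (median −0.67), and H2-Ab1, the class II beta chain gene, was a DEG at a log2FC of −1.03 (FDR = 0.00163). This call was lost under 12 of 26 alternative settings. H2-Ab1 measured 248, 152, 282, 366 and 418 CPM in NX and 127, 138, 173, 153 and 129 CPM in CIH, with NX 2 among the CIH libraries. Of 51 lysosomal genes 27 were lower and 0 higher (median −0.28), and of 17 complement genes 5 were lower (median −0.33), among them C1qa, a C1q subunit (log2FC −0.74, FDR = 0.000317).

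Redox genes shared this direction. Of 35 NRF2 and antioxidant genes, 20 were lower at an FDR below 0.05, against 15% of all genes, and 0 higher (median log2FC −0.49). The ferritin chain genes Fth1 (−0.64, FDR = 0.000629) and Ftl1 (−0.51, FDR = 0.00997) fell, and Mgst1, a microsomal glutathione transferase, was the single DEG of the list (−1.11, FDR = 0.00947), a call lost without NX 5 or CIH 1. Hmox1, a heme oxygenase gene that NRF2 and HIF both induce, was not called (−0.07, FDR = 0.748). Of 9 NADPH oxidase genes, 6 were lower (median −0.45), including the membrane subunit genes Cyba (−0.80, FDR = 0.000978) and Cybb (−0.52, FDR = 0.0171).

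Genes of the translation and respiration machinery fell in the same comparison. Of 82 cytosolic ribosomal protein genes, 75 were lower at an FDR below 0.05 against 15% of all genes, 0 were higher, and for 66 of them every CIH library lay below every NX library, against 9.22% of all genes. Their summed level was 24853 to 36241 CPM in NX and 16354 to 18195 CPM in CIH, without overlap, and their median log2FC was −0.73. Rps26 measured 264, 258, 462, 421 and 327 CPM in NX and 202, 181, 175, 159 and 176 CPM in CIH (log2FC −0.96, SE 0.146, FDR = 0.000426). No ribosomal protein gene passed the 2-fold limit. Many have processed pseudogenes, with which reads may be shared. Leaving out each library gave 72 to 77 lower genes.

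Nuclear genes of the respiratory chain followed. At an FDR below 0.05, where 15% of all genes were lower and 13.6% higher, 25 of 38 complex I genes were lower and 1 higher (median log2FC −0.51), and of 41 genes of complexes II to V 37 were lower and 0 higher (−0.54). Of 12 genes encoded in the mitochondrial genome 9 were lower (−0.63), including mt-Nd4, a complex I subunit gene, which ranged from 1360 to 2329 CPM in NX and from 816 to 972 CPM in CIH (log2FC −0.93, SE 0.127, FDR = 0.000272). No member of these 3 lists was a DEG.

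In the other direction, 34 of 50 chromatin and transcription regulator genes were higher at an FDR below 0.05 and 0 were lower (median log2FC 0.43), against 13.6% higher among all genes. With the trend of fold change on gene length removed, 11 were higher and 1 lower, and the median was 0.11. Kmt2a, a histone H3 lysine 4 methyltransferase gene, measured 135, 128, 95.8, 95.4 and 75.2 CPM in NX and 177, 227, 202, 192 and 145 CPM in CIH, with CIH above NX throughout (log2FC 0.83, SE 0.15, FDR = 0.00107, and log2FC 0.48 with the length trend removed). Of 12 nuclear-retained lncRNA genes 4 were higher. Malat1, an abundant nuclear lncRNA, measured 1020, 614, 422, 476 and 349 CPM in NX and 1275, 1093, 1402, 1486 and 958 CPM in CIH, where NX 1 lay above CIH 5 (log2FC 1.11, SE 0.227, FDR = 0.00231). It left the 2-fold limit without NX 5 and with the length trend removed. Neat1, the scaffold RNA of paraspeckles, was not called (0.08, FDR = 0.69).

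**Figure D2:**
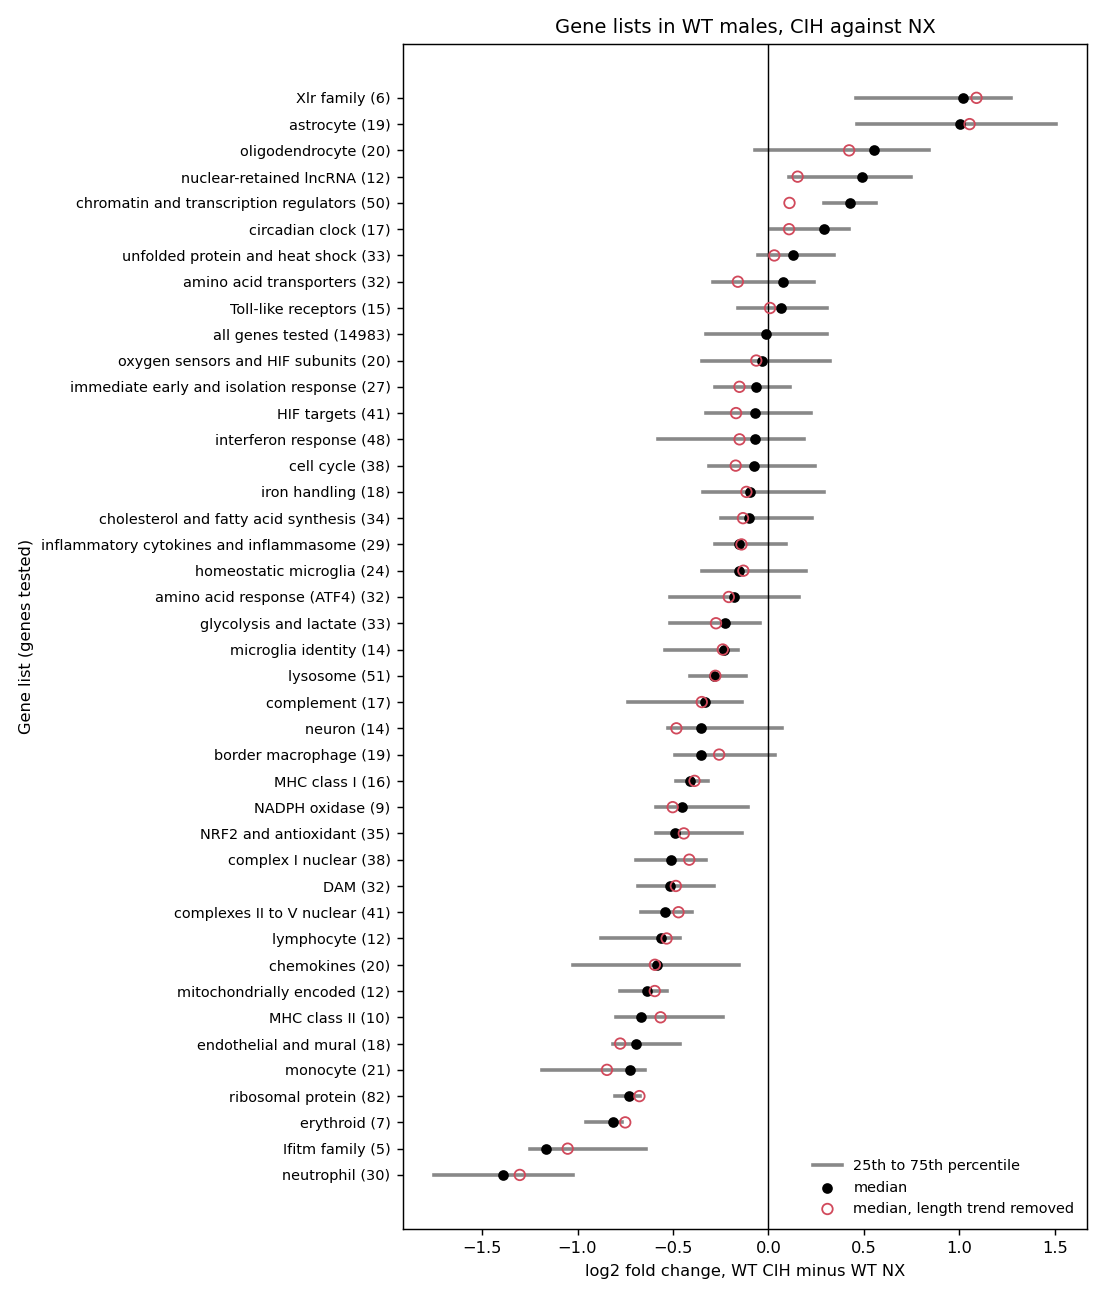
Log2FC (CIH minus NX) over the tested members of each gene list, with the median as a point, the 25th to 75th percentile as a line and the median after removal of the length trend as an open circle. The neutrophil, Ifitm, monocyte, ribosomal protein and respiratory chain lists lie to the left of 0 (medians −1.39, −1.17, −0.73, −0.73 and −0.51 to −0.63), and the chromatin and astrocyte lists to the right (0.43 and 1.00).

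Fold change moved with gene length, the summed exon length in the deposited table. The median log2FC was −0.29 for genes under 500 bases, −0.43 for genes of 500 to 1000 bases, −0.35 for 1000 to 2000, −0.03 for 3000 to 5000 and 0.27 above 8000 bases, and Spearman's correlation across genes was 0.36 over the 14983 tested genes and 0.49 over the 12593 protein-coding genes. Genes share libraries and are not independent replicates. The share higher at an FDR below 0.05 was 35.5% above 8000 bases and 4.17% at 500 to 1000 bases, and the share lower was 1.97% and 28.5%. Genes under 500 bases did not extend this order, with 15.1% lower. The mean log2 gene length of the counts was 11.94 ± 0.062 in NX and 12.12 ± 0.023 in CIH (SD, n = 5 each, exact permutation p = 0.00794, adjusted p = 0.0119). The chromatin genes had a median length of 13176 bases.

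When the trend on gene length was removed within each library, 313 DEGs were called (197 higher and 116 lower), and genes at an FDR below 0.05 became 860 higher and 2206 lower. The chromatin list then held 11 higher and 1 lower gene with a median of 0.11, while 73 of 82 ribosomal protein genes were still lower, with a median of −0.68. The neutrophil median was then −1.30, that of complex I −0.41, and that of complexes II to V −0.47. Of the lncRNA list, the median was 0.15. The part of gene length in the differences was not tested beyond this.

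**Figure D3:**
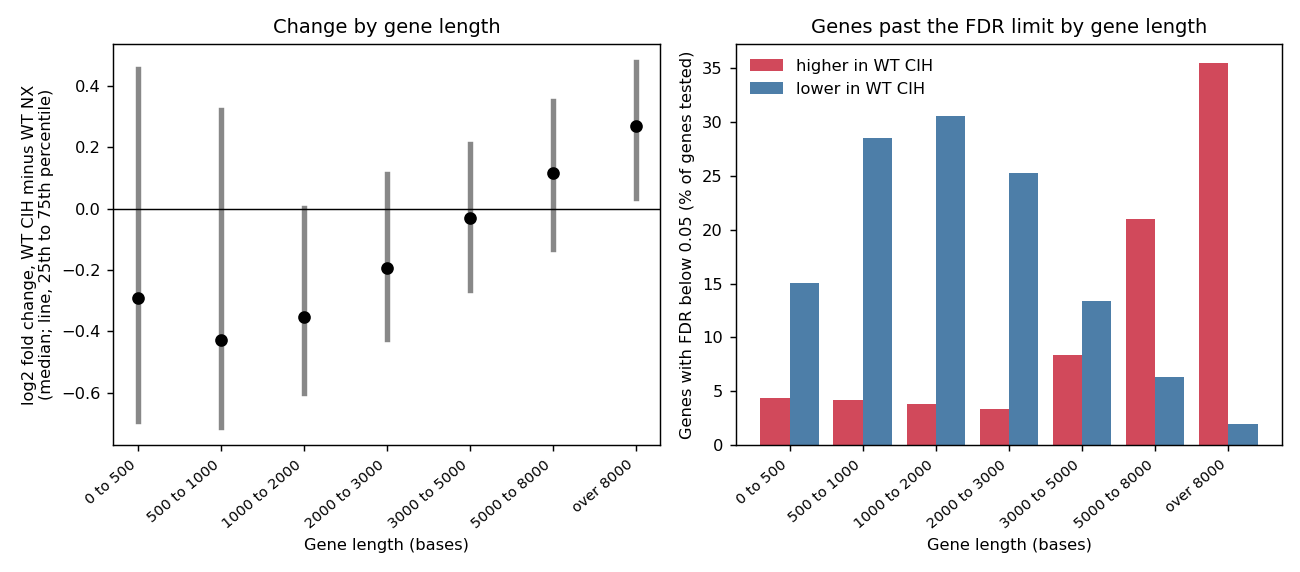
The left panel plots the median log2FC (CIH minus NX) with the 25th to 75th percentile by gene length class in bases, and the right panel plots the percentage of tested genes higher or lower at an FDR below 0.05. The median climbs from −0.43 at 500 to 1000 bases to 0.27 above 8000 bases, and the class under 500 bases lies at −0.29.

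Among stress genes, a few chaperone genes and a glucocorticoid-induced gene rose. Of 33 unfolded protein and heat shock genes, 3 were higher DEGs against 1.63% of all genes. At an FDR below 0.05, 7 were higher and 3 lower (median log2FC 0.13), against 13.6% and 15% of all genes. Leaving out each library gave 1 to 4 higher DEGs and 3 to 12 genes higher at that FDR, and with the length trend removed 1 DEG was left and the median was 0.03. Hsph1, an HSP110 chaperone gene, measured 12.7, 21.1, 25.3, 20.9 and 13.7 CPM in NX and 24.2, 36.4, 53.3, 91.7 and 89.7 CPM in CIH, where only CIH 1 reached an NX level (log2FC 1.66, SE 0.311, FDR = 0.00139). Dnaja1, an HSP40 co-chaperone gene, rose by less (1.02, FDR = 0.00227) and lost its call under 10 of 26 alternative settings. Hspa1b, an inducible HSP70 gene, measured 31.7, 153, 12.9, 24.5 and 29.8 CPM in NX and 72.5, 104, 77, 320 and 168 CPM in CIH (log2FC 1.57, SE 0.557, FDR = 0.0457). The heat shock element, the site bound by HSF1, was searched as GAA, TTC and GAA separated by 2 bases each, on both strands of the 250 bases before the start, and occurred in 153 of 32851 promoters (0.466%), in 1 of 27 genes of this list and in none of the 3 DEGs. The NX 2 value of Hspa1b exceeded 3 CIH libraries, the call was lost under 13 of 26 alternative settings, and Hspa1b is near-identical to Hspa1a (log2FC 1.35, not called), so that reads may be split between them. Ahsa2, an HSP90 co-chaperone homolog, measured 9.31, 9.27, 11.7, 7.37 and 8.72 CPM in NX and 17.1, 19.7, 26.9, 35 and 38.5 CPM in CIH, without overlap (log2FC 1.56, SE 0.211, FDR = 0.000272). The endoplasmic reticulum chaperone genes Calr (−0.33) and Pdia3 (−0.29) were among the 3 that fell, while Hspa5, the BiP gene, rose by 0.33 on the log2 scale.

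The cold-inducible RNA-binding protein gene Cirbp fell. It measured 261, 215, 281, 197 and 295 CPM in NX and 192, 120, 114, 82.5 and 91.7 CPM in CIH, without overlap (log2FC −1.06, SE 0.188, FDR = 0.000987). Its call was lost under 6 of 26 alternative settings. Tsc22d3, the glucocorticoid-induced leucine zipper gene, measured 47.2, 42.2, 41.5, 45.6 and 43.3 CPM in NX and 61, 73.4, 108, 123 and 137 CPM in CIH, without overlap (log2FC 1.19, SE 0.176, FDR = 0.000368). The NX libraries lay within a narrow range, and the CIH libraries varied by more. Of 27 immediate early and tissue isolation response genes, Hspa1b was the single DEG and 2 were higher at an FDR below 0.05 (median log2FC −0.06). Among all genes 1.63% were higher DEGs and 13.6% were higher at that FDR.

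The classical HIF targets did not move as a group. Of 41 tested, 1 was a higher DEG, 5 were higher and 6 lower at an FDR below 0.05, shares near the 13.6% and 15% of all genes, and the median log2FC was −0.07. The DEG was Ddit4, an inhibitor of mTORC1, which measured 19.7, 12.1, 4.86, 15.9 and 16.3 CPM in NX and 11.7, 21, 28.7, 40.6 and 39.6 CPM in CIH, with CIH 1 below 4 NX libraries (log2FC 1.05, SE 0.337, FDR = 0.0296). The call on Ddit4 was lost under 11 of 26 alternative settings, DESeq2 included. Vegfa, the vascular endothelial growth factor gene, rose (0.74, FDR = 0.0388), but its FDR was above 0.05 without any 1 of NX 1, NX 2, NX 3, CIH 3, CIH 4 or CIH 5 (0.124 without CIH 5) and with the length trend removed (0.0618). Also higher at an FDR below 0.05 were the lysine demethylase gene Kdm3a (0.43) and the prolyl hydroxylase gene P4ha1 (0.37). The glycolytic genes Aldoa (−0.60), Eno1 (−0.57) and Ldha (−0.35) fell, and Slc2a1, the glucose transporter GLUT1 gene, was not called (−0.40). Hif1a itself was not called (log2FC −0.01, SE 0.0774, FDR = 0.941). Of 20 oxygen sensor and HIF subunit genes 4 were higher and 5 lower, and of 33 glycolysis and lactate genes 2 were higher and 10 lower (median −0.23), in each case with 0 DEGs and against the same shares of all genes.

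Among DEGs whose libraries did not overlap and that have a gene symbol other than a provisional or clone name, the largest rises were those of Far1os (log2FC 2.22, FDR = 0.00271), the protocadherin gene Pcdhgb6 (2.10, FDR = 0.0236), the AMPA receptor subunit gene Gria2 (1.83, FDR = 0.0116), the zinc finger gene Zc3h11a (1.65, FDR = 0.000266), the guanine nucleotide exchange factor gene Ect2 (1.63, FDR = 0.00844), Ahsa2 as above, Clic3 (1.54, FDR = 0.0334), the ciliary gene Cep290 (1.50, FDR = 0.000492), Zfp169 (1.47, FDR = 0.000727) and the transcription factor gene Plag1 (1.45, FDR = 0.0139). Most of the 10 measured under 5 CPM in NX. Pcdhgb6 lost its call without NX 5, Plag1 without CIH 3, and Clic3 without each of 5 libraries (NX 4, NX 5, CIH 2, CIH 4 or CIH 5). Gria2, for example, measured 0.337, 1.31, 0.454, 1.12 and 1.57 CPM in NX and 2, 2.06, 2.46, 5.84 and 4.55 CPM in CIH. Zc3h11a had more, with 15.1, 12.9, 9.09, 6.62 and 6.96 CPM in NX and 27.5, 31, 36.1, 38 and 26.4 CPM in CIH. Cep290 measured 3.25, 2.43, 5.59, 4.76 and 3.39 CPM in NX and 8.01, 12.9, 12, 10.6 and 11.5 CPM in CIH.

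Among the same kind of gene, the largest falls without overlap were those of G0s2 and Slpi, followed by Shcbp1 (log2FC −1.94, FDR = 0.0188), which is expressed in dividing cells, Trem3 (−1.85, FDR = 0.00883), Spata24 (−1.69, FDR = 0.000665), the neuronal genes Dpysl3 (−1.60, FDR = 0.0156) and Mapk10 (−1.42, FDR = 0.0346), Hp, the fucosyltransferase gene Fut7 (−1.32, FDR = 0.0231) and Ltb4r1, a leukotriene B4 receptor gene (−1.29, FDR = 0.0122). Mapk10 lost its call under 14 of 25 alternative settings, Fut7 without CIH 2 and Ltb4r1 without NX 5. Of the 5 DEGs with the highest level in each direction, most are described with their lists. The others were Nktr, a natural killer cell-associated cyclophilin gene, which rose (log2FC 1.10, FDR = 0.00117), and Rpl17-ps10, a processed pseudogene of a ribosomal protein gene, which fell (−1.19, FDR = 0.000359). Shcbp1 was the single DEG among 38 cell cycle genes, of which 6 were lower, a share near the 15% of all genes, and 0 higher at an FDR below 0.05 (median log2FC −0.08).

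**Figure D4:**
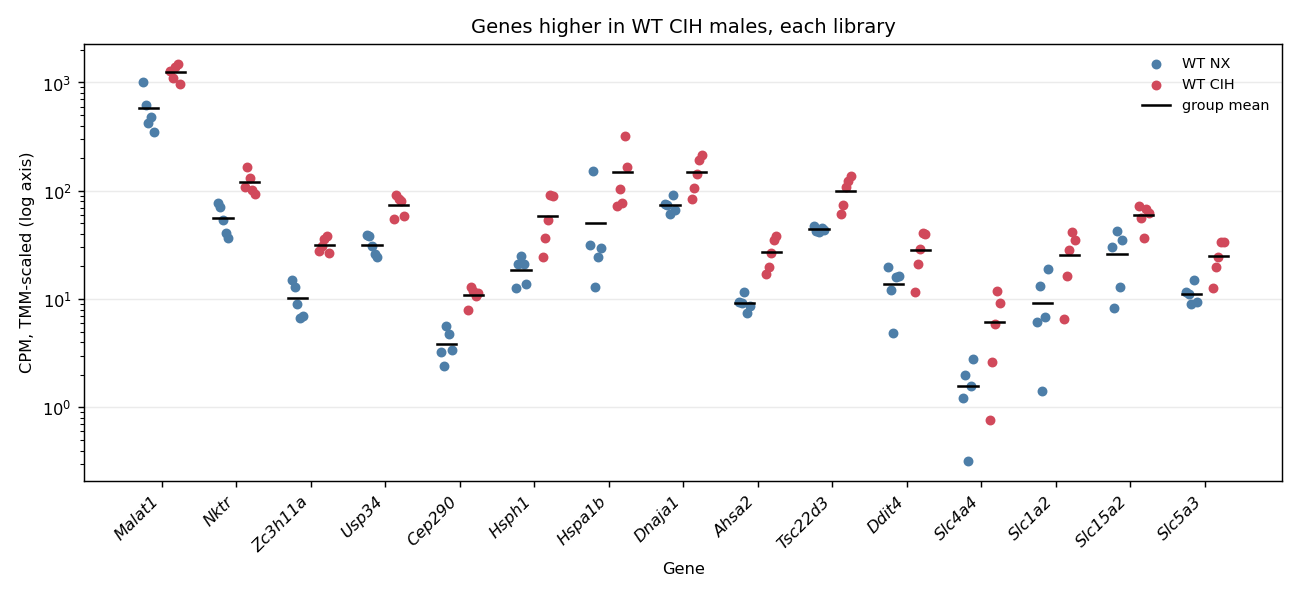
CPM (TMM-scaled, log axis) of 15 genes that rose, with 1 point per library for the 5 WT NX and the 5 WT CIH libraries and a line at each group mean. Tsc22d3, Ahsa2, Zc3h11a and Cep290 do not overlap between groups, and the NX 2 value of Hspa1b (153 CPM) lies among the CIH libraries.

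Xlr3a, a lymphoid-expressed X-linked gene of a multigene family, had the largest fitted rise of the list genes. It had 2, 0, 1, 0 and 2 reads in NX 1 to 5 and 38, 1, 30, 22 and 44 reads in CIH 1 to 5, so that CIH 2 lay within the NX range. The log2FC of Xlr3a was 4.75 (SE 0.952, FDR = 0.00208), a value that depends on the prior count because NX held 5 reads in all. Its near-identical copy Xlr3b had 269 reads in NX and 643 in CIH and was not a DEG (log2FC 1.30, FDR = 0.0588), although it was called under 8 of 26 alternative settings. Reads may be split between such copies.

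Solute carrier genes include the transporters of amino acids, ions and neurotransmitters. Of 238 tested, 5 were higher DEGs (1.63% of all genes were) and 0 lower, while 28 were higher and 36 lower at an FDR below 0.05, near the 13.6% and 15% of all genes, with a median log2FC of −0.00. Those described here were Slc4a4, a sodium bicarbonate cotransporter gene (1.96, FDR = 0.0241), Slc1a2, the glutamate transporter GLT-1 gene (1.47, FDR = 0.0434), Slc15a2, a peptide transporter gene (1.18, FDR = 0.0144), and Slc5a3, a myo-inositol transporter gene (1.15, FDR = 0.00207). Slc1a2 measured 6.17, 13.2, 1.41, 6.77 and 19 CPM in NX and 6.49, 16.4, 28.6, 41.4 and 35.2 CPM in CIH. CIH 3, CIH 4 and CIH 5 were high, and CIH 1 and CIH 2 lay within the NX range. The call on Slc1a2 was lost under 14 of 26 alternative settings, and that on Slc4a4 under 9 of 25, and Slc15a2 lost its call without NX 2. Among 32 amino acid transporter genes tested, 5 were higher and 6 lower at an FDR below 0.05, near those shares as well (median 0.08, and −0.16 with the length trend removed).

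Slc1a2 and Slc4a4 also stand in the astrocyte marker list. Of 19 astrocyte genes tested, 3 were higher DEGs, which were these 2 and F3, the tissue factor gene (log2FC 1.00), against 1.63% of all genes, and 16 had a log2FC above 0 (median 1.00). The 3 astrocyte markers Gfap, Aqp4 and Slc1a2 summed to 2 to 21.8 CPM in NX and 7.53 to 49.3 CPM in CIH, but Slc1a2 made up most of that sum. Gfap, the intermediate filament gene of astrocytes, had medians of 0.595 CPM in NX and 0.596 CPM in CIH and was at 0 in 1 library, and Aqp4, the aquaporin of astrocyte endfeet, had medians of 1.58 and 3.17 CPM and was not called. The lists without each library in turn held 0 to 9 astrocyte genes higher at an FDR below 0.05. Of 20 oligodendrocyte genes 2 were higher DEGs, against the same share, among them the myelin gene Ermn (log2FC 1.57, FDR = 0.032), and the list median was 0.55. Ermn lost its call under 13 of 25 alternative settings and F3 under 13 of 26. Mbp, the myelin basic protein gene, was not called (−0.17). With the length trend removed and CIH 5 left out, neither list held a call. The part of other cell types in the transporter values was not tested.

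The lists for 5 further cell types held 0 DEGs. Of 14 neuron genes and 18 endothelial and mural genes 0 passed edgeR's test (medians −0.36 and −0.70, with 1 and 3 at an unadjusted p below 0.05, and 0 and 1 lower in DESeq2). Among the endothelial genes 5 were lower with the replicate number as a block, and 0 to 4 endothelial and 0 to 2 neuron genes were lower when each library was left out. Against 15% lower among all genes at an FDR below 0.05, of 12 lymphocyte genes 3 were lower (−0.56), of 7 erythroid genes 2 were lower (−0.82), and of 19 border macrophage genes 5 were lower (−0.36). When each library was left out, 1 to 5 erythroid genes were lower at that FDR with 0 to 3 DEGs, 3 to 5 lymphocyte genes with 0 to 2 DEGs, and 3 to 7 border macrophage genes with 0 DEGs, and the endothelial list held 0 to 2 DEGs. Their marker sums overlapped between groups, with 48.1 to 118 CPM in NX and 53.5 to 79.4 CPM in CIH for the endothelial markers and 191 to 264 against 122 to 268 CPM for the border macrophage markers. The lymphocyte marker Cd3e was at 0 in 3 libraries.

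Further lists held few DEGs, and their counts at an FDR below 0.05 are to be read against 13.6% higher and 15% lower among all genes. Of 20 chemokine genes 4 were lower and 0 higher (median log2FC −0.58), with Cxcl10 as the DEG, of 29 inflammatory cytokine and inflammasome genes 3 were higher and 6 lower (−0.16), and of 15 Toll-like receptor genes 2 were higher and 2 lower (0.07). Of 17 circadian clock genes 5 were higher and 0 lower (median 0.29), among them Arntl, the BMAL1 gene, which was higher in every CIH library (0.63, FDR = 0.00702), and the repressor gene Nfil3 (0.78, FDR = 0.0386). Of these clock genes 3 to 5 were higher when each library was left out, 1 was higher with the length trend removed (median 0.11), and 0 were without CIH 5 as well. Of 32 ATF4 amino acid response genes 3 were higher and 12 lower (−0.18), of 18 iron handling genes 4 were higher and 5 lower (−0.10), and of 34 cholesterol and fatty acid synthesis genes 3 were higher and 3 lower (−0.10). Of 24 homeostatic microglia genes 3 were higher and 9 lower (−0.16), with Gpr165, an orphan receptor gene, as the DEG (log2FC 1.11, FDR = 0.00746), a call lost without NX 5 or CIH 3.

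Higher DEGs were often not protein-coding. Of 446 tested genes of the class TEC, which are gene models awaiting experimental evidence, 59 were higher DEGs (13.2%), as were 59 of 1155 lncRNA genes (5.11%) and 101 of 12593 protein-coding genes (0.802%). Of the 143 non-coding higher DEGs, 65 (45.5%) lay inside a protein-coding gene on the same strand, against 20.4% of the 2390 non-coding genes tested and 22.6% of the 53 lower non-coding DEGs. A further 47 (32.9%) lay inside a protein-coding gene on the opposite strand, against 19.7% of the non-coding genes tested. The counts inside such genes may include reads from introns of the host, and whether the counting used strand is not given in the sources used here. In a fit to protein-coding genes alone, 181 DEGs were called, 106 higher and 75 lower.

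CIH gave no DEG in 5XFAD males, which carry human transgenes with familial Alzheimer's disease mutations that are expressed in neurons, at the same age (0 of 14334 genes, 473 at an unadjusted p below 0.05, edgeR). In WT females, which were 10 months old with 6 months of exposure, it also gave 0 of 14583 (565 at an unadjusted p below 0.05). The difference between genotypes in males was tested as the interaction of genotype and treatment. It called 0 of 15813 genes (0%) in edgeR's quasi-likelihood test, with 3857 at an unadjusted p below 0.05 and a smallest FDR of 0.117, whereas edgeR's likelihood ratio test called 175 and DESeq2 381. The count depended on the test and on the libraries. Without 5XFAD NX 1 the quasi-likelihood test called 478 genes, with a smallest FDR of 0.0466 just under the limit, and without each other library it called 0, with smallest FDRs from 0.0527 (without 5XFAD NX 3) to 0.227.

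Values are therefore given side by side for the 2 genotypes. Ifitm3 had a log2FC of −1.25 in WT and 0.02 in 5XFAD males (interaction FDR = 0.129), and Malat1 had 1.11 and −1.11 (FDR = 0.127). The neutrophil genes Ngp (−1.76 and −2.06) and Lcn2 (−1.87 and −1.90), the stress genes Ddit4 (1.05 and 1.08) and Hspa1b (1.57 and 1.86), and Tsc22d3 (1.19 and 0.90) had fitted values of the same sign in both. Over lists, the ribosomal protein median was −0.73 in WT and 0.28 in 5XFAD males, and the neutrophil median was −1.39 and −1.01. Capg, an actin-capping protein gene that fell in WT (−1.01), had the smallest p of the interaction, with a difference (5XFAD minus WT) of 1.43 (SE 0.291, FDR = 0.117). It was followed by 4930506C21Rik (−3.04), Gm26648 (−3.12), Gm45413 (−6.39) and Zfp971 (−2.43), all 4 of them higher DEGs in WT, each with an interaction FDR of 0.117. Gm45413 had 6 reads in the 5 WT NX libraries and 85 in WT CIH, so that its fitted value depends on the prior count.

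The CIH effect in WT males differed from that in WT females at 181 of 14341 genes (1.26%, 126 with a more positive effect in males and 55 with a more negative one), and at 2219 (15.5%) without the fold limit. Sex, age, length of exposure and count table differed together in this comparison and cannot be told apart. Among the DEGs of WT males, the smallest FDRs of this difference belonged to Nbeal1 (difference 1.30, SE 0.19, FDR = 0.0012), Usp34, a deubiquitinase gene (1.31, FDR = 0.00141), Zfyve16 (1.10, FDR = 0.00141) and Yif1b (−1.08, FDR = 0.00144). Tsc22d3 had a log2FC of 1.19 in males and −0.07 in females (difference FDR = 0.00419), Ahsa2 had 1.56 and 0.16 (FDR = 0.00358), Cep290 had 1.50 and −0.09 (FDR = 0.00155), and Ngp had −1.76 and 0.47 (FDR = 0.0487). Of 82 ribosomal protein genes, 59 had a more negative effect in males, where the list medians were −0.73 in males and −0.12 in females. Ifitm3 (−1.25 and −0.56, FDR = 0.339) and G0s2 (−2.07 and −1.85, FDR = 0.874) did not pass this test. Leaving out each library in turn gave 112 genes (without female WT NX 2) to 295 (without male WT NX 1).

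**Figure D5:**
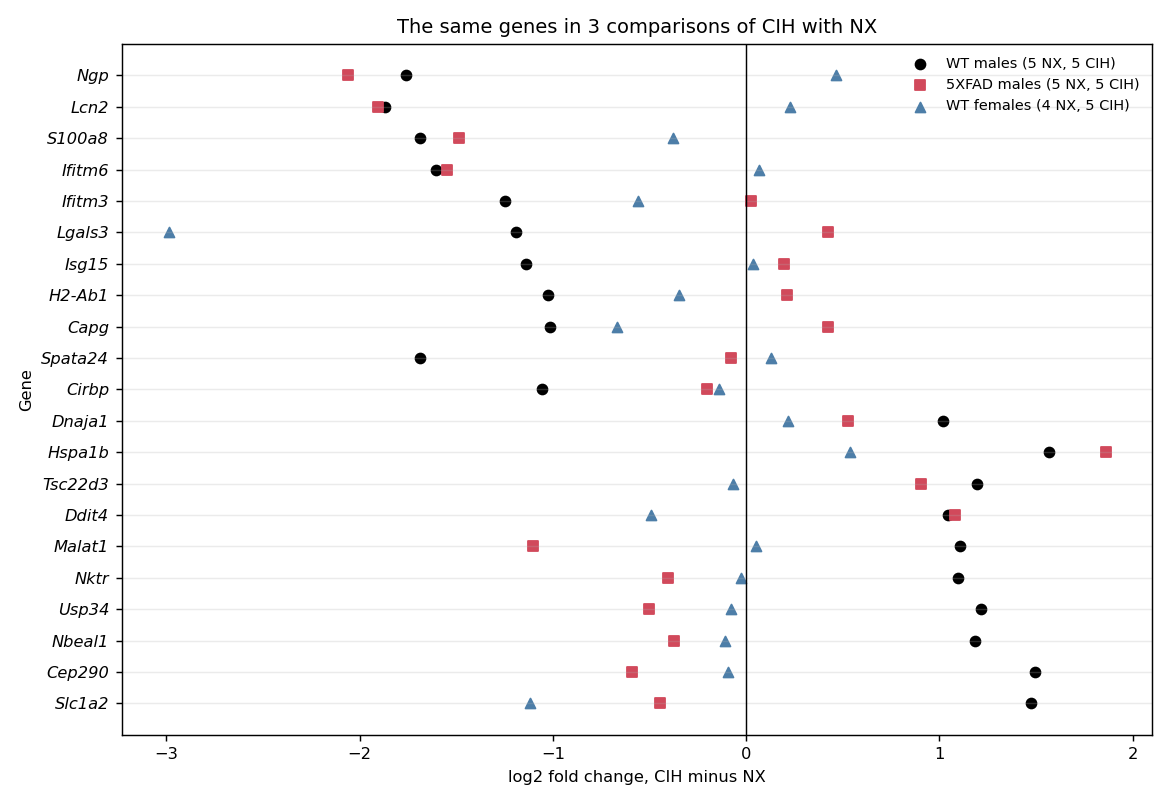
Log2FC (CIH minus NX) of named genes in WT males, 5XFAD males and WT females, with 1 marker per comparison and no error bars. Ngp and Lcn2 lie below 0 in both male comparisons, whereas Ifitm3 lies at −1.25 in WT males and 0.02 in 5XFAD males.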

How the data were processed

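RNA-seq values of CD11b+ cells from 5 WT NX and 5 WT CIH male mice were analysed, with 5XFAD males and WT females for 2 further comparisons. According to the submitters' processing notes, reads were aligned with HISAT2 to GRCm38 (mm10). The versions of the aligner and the counting tool are not given in the sources used here. The authors deposited whole-number counts per gene without normalization, and FPKM values in the same male table. Each FPKM value equalled the count divided by gene length and by a library total that was 1.05 to 1.20 times the sum of the counts.

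DEGs were called with edgeR 4.0.16 under R 4.3.3 (TMM, quasi-likelihood F test, Benjamini-Hochberg adjustment), after removal of genes that did not exceed 1 CPM in 3 or more libraries. The filter and thresholds are those named in the methods. The fit held the 2 groups compared. The interaction was fitted over the 4 male groups, and the male minus female difference over the WT groups of both sexes on 34342 shared symbols. CPM values shown are TMM-scaled, and SE is that of the log2FC. Other tools were DESeq2 1.42.0 and limma 3.58.1 (on log2(FPKM + 1) and log2(FPKM + 0.1)). Alternatives are listed in the closing section. In a simulation, 200 genes were given a log2FC of 2. The WT male comparison found 199 of these and the interaction 189, and false calls numbered 3 and 4. Recovery of smaller changes, or of genes under 5 CPM on their own, was not measured. The simulation therefore does not give the power near the 2-fold limit or at low levels, for either test.

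The members, gene lists and tests were chosen with earlier results of these data known. Genes are named if the study names them for this comparison, if they are DEGs of a list (in lists with more than 4, the 4 largest changes and the 2 highest levels), if they are among the 10 largest non-overlapping rises or falls with a gene symbol, the 5 DEGs with the highest level in each direction or the 5 smallest p in the other comparisons, or if they define a list. Some list members below the 2-fold limit were named after their values were seen. Chi-square values of counts per degree of freedom between libraries of a group were 8.01 to 34.7 over 20 pairs, so that no library was a copy of another. Same-numbered NX and CIH libraries correlated above 0.1 in 2 of 5 pairs and were not treated as paired. No library was left out of the values reported. The results of some single genes are not reported.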

Additional observations from a re-analysis of the deposited data

Results flagged for a closer look

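Single libraries lay far from the other 4 of their group in 12 of the 250 groups of 5 values tested by Dixon's test (4.8%, where chance gives about 5%). In CIH 1, Cxcl10 measured 8.354 CPM (the others 2.545 to 4.081), Nbeal1 39.218 CPM (59.04 to 63.6) and Ftl1 566.17 CPM (435.505 to 454.785). In NX 5, Ms4a4c measured 9.343 CPM and Mgst1 8.904 CPM, both above the other NX libraries. In NX 1, Zfp169 measured 12.452 CPM (4.577 to 5.985) and Gm26648 3.534 CPM (0.526 to 1.318). Hspa1b measured 152.529 CPM in NX 2 (12.902 to 31.69). Trem3 measured 1.346 CPM in CIH 5, Cebpe 1.168 CPM in CIH 4 and H2-Aa 177.401 CPM in CIH 3, each above the other CIH libraries. CIH 5 held 33169 genes with at least 1 count.

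The CIH effect differed between WT males and WT females by edgeR's test of the difference (FDR below 0.05 and above 2-fold) for 27 of the genes named or plotted, and sex, age, exposure length and count table cannot be told apart. Many of these genes were named for their change in WT males or for this difference itself, so their count carries no weight of its own. Over all genes, 181 of 14341 (1.26%) differed. The difference (log2FC in males minus females) was positive for the transporter genes Slc4a4 (2.918) and Slc15a2 (2.156), for the neural genes Gria2 (2.482) and Pcdhgb6 (2.412), and for the hypoxia and stress genes Vegfa (2.3), Ddit4 (1.551), Ahsa2 (1.404) and Tsc22d3 (1.273). It was also positive for Far1os (2.125), 4930506C21Rik (1.917), Ect2 (1.901), Cep290 (1.597), Plag1 (1.542), Zfp169 (1.311), Usp34 (1.305), Nbeal1 (1.3), Gpr165 (1.149), Nktr (1.133), Zfp971 (1.127), Zfyve16 (1.103) and Malat1 (1.064). It was negative for the neutrophil genes Cebpe (−2.61), Ngp (−2.206), Camp (−2.006) and Pglyrp1 (−1.749) and for Spata24 (−1.811) and Yif1b (−1.084). Female values that were not called enter these differences. The log2FC of Vegfa was 0.74 in males and −1.55 in females, that of Slc4a4 1.96 and −0.94, and that of Slc15a2 1.18 and −0.97.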

How the results depend on the processing

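The 376 DEGs in WT males (244 higher, 132 lower) became 639 without a filter on low counts (487 higher), 162 at an FDR below 0.01 (96 and 66, with 1066 higher and 1225 lower genes before the fold limit), 126 with limma on log2(FPKM + 1) (81 and 45) and 4279 without the fold limit (2035 and 2244). At least 10 counts in every sample left 162 higher DEGs, and protein-coding genes alone gave 181 (106 and 75). All 4 male groups in one fit gave 0 in each direction, and the same fit without 5XFAD NX 1 gave 107 (61 and 46, with 453 and 426 before the fold limit). With the length trend removed, 860 genes were higher at an FDR below 0.05, and without CIH 5 as well 698 were (161 of them DEGs). Leaving out each library gave 267 (without CIH 4) to 621 (without NX 1) DEGs, of which 150 to 435 were higher, and 92 to 186 lower. The replicate number as a block gave 398 DEGs (294 and 104), 319 of them shared. The numbers were not shown to pair the libraries, since same-numbered pairs correlated at −0.02 to 0.25 and 1 of 5 NX libraries correlated best with its own number. The interaction had 0 DEGs with the block, 175 by the likelihood ratio test, 381 by DESeq2, 478 without 5XFAD NX 1 and 0 without any other library. The male minus female difference went from 181 to 275 by the likelihood ratio test and to 2219 without the fold limit, and ranged from 112 to 295 when libraries were left out. Where an alternative tested fewer genes or samples, or set another limit, its construction changed the count, and for the other changes the cause was not tested. No fitted change of a named gene that was a DEG turned its direction under any alternative run. The protein-coding fit, the length correction without CIH 5 and the 4-group fit without 5XFAD NX 1 were chosen after seeing the data. Genes under 5 CPM rest on few reads in each library, where differences near 2-fold may not be detectable.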
